A study of Homo sapiens with 18 samples.

Results

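Cell cycle and DNA replication genes were followed in H295R cells, an established human adrenocortical carcinoma line that makes steroid hormones. The group holds 40 genes named by symbol: helicase and licensing factors, a polymerase clamp, nucleotide enzymes, cyclins and their kinases, kinase inhibitors, E2F factors and mitotic genes. Array probe sets annotated to 1 gene measured 39 of the 40, of 18417 genes measured in all, and CDKN2C, an inhibitor of CDK4 and CDK6, is not analysed here. Among the measured members, UHRF1 had more than 1 probe set, and the one with the higher mean was used. The values are log2 array signals, so a difference of 1 is a doubling, and signals of different genes are not set against each other.

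Both lines carried a stable, non-inducible pcDNA4 vector and grew under Zeocin. In GRα cells the vector encodes the alpha isoform of the glucocorticoid receptor (gene NR3C1), and in control cells it is empty. At 70% confluence the cells went without serum for 24 h and then received dexamethasone (a receptor agonist, 100 nM), RU486 (mifepristone, an antagonist or partial agonist, 100 nM) or ethanol vehicle for 6 h. GRα cells have 3 arrays with dexamethasone, 2 with RU486 and 3 with vehicle, and control cells have 3 arrays with each treatment. Each construct is represented by 1 stable line, so the receptor's effect and any other difference between the lines cannot be told apart. Replicates are labelled biological, but nothing says that they came from separate cultures, so p-values measure the spread between these arrays, which may be technical.

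NR3C1 was read first. It lay between 7.90 and 8.11 in the 8 GRα arrays and between 7.23 and 7.46 in the 9 control arrays, with no overlap, and was 1.5-fold higher in GRα cells in vehicle. Of 8 adrenocortical markers, STAR, SULT2A1, HSD3B2, FDX1 and NR5A1 were called lower and CYP17A1 higher in GRα cells in vehicle (4 lower without GRα vehicle replicate B, where FDX1 had a limma adjusted p of 0.0891). Their mean signal ran from 8.16 to 8.27 in GRα arrays and from 8.55 to 8.77 in control arrays, so the lines also differ in this program, and its part in the cell cycle results was not tested. Markers of other cell types had mean signals, over GRα and then control arrays, of 5.87 to 6.22 and 5.77 to 5.89 for 4 chromaffin genes, and 5.51 to 5.70 and 5.40 to 5.53 for 6 fibroblast genes. Those of 4 endothelial genes were 5.15 to 5.36 and 5.03 to 5.29, of 4 leukocyte genes 4.71 to 5.00 and 4.70 to 4.92, and of 4 epithelial genes 6.09 to 6.351 and 5.90 to 6.10. A list mean joins genes of unlike signal, so it serves to compare the lines, not the lists. In control arrays EPCAM read 7.17 to 8.03 and CDH1 4.77 to 5.06, both epithelial, and in GRα arrays the adrenocortical HSD3B2 read 5.17 to 5.82. In vehicle 1 chromaffin, 2 fibroblast, 2 endothelial, 0 leukocyte and 1 epithelial markers were called higher by limma, none lower, and their part was not tested (1 leukocyte marker had an unadjusted p under 0.05). Of all genes 15% were called higher in vehicle and 18.3% lower. Without GRα vehicle replicate B the endothelial count was 1, CDH5 being lost (limma adjusted p = 0.138). GRα vehicle replicate B stood apart: limma gave it the least weight of any array (0.194), and values without it are given beside several results.

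As background, a cell enters the division cycle when D-type cyclins with CDK4 and CDK6, then E-type cyclins with CDK2, inactivate the retinoblastoma protein and free E2F factors. E2F factors then switch on genes for DNA replication, where licensing factors load the MCM helicase on origins during G1 and the clamp PCNA holds polymerases on DNA during S phase. Later, cyclins A and B with CDK1, the Polo and Aurora kinases and the spindle checkpoint carry the cell through mitosis, and their promoters often hold a CHR element and CCAAT boxes. Glucocorticoids are known to slow the cycle in many cell types, and CDKN1A, CDKN1C and D-type cyclins are among the genes through which they act.

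The promoters of a few members show these elements, and 3 replication genes and 3 mitotic genes that differed between the lines are printed here as examples of each class. The sequences are the RefSeq promoter bases up to the base before the start site in GRCh38.p14, 5′ to 3′ on the gene's strand. Capitals mark matches on either strand to the E2F words TTTCCCGC, TTTCGCGC, TTTGCCGC and TTTGGCGC, to the CHR words TTTGAA and TTTAAA, or to CCAAT. They are MCM6 (chr2:135876444-135876603, minus strand), CDT1 (chr16:88803689-88803788, plus), PCNA (chr20:5126623-5126722, minus), MKI67 (chr10:128126424-128126533, minus), PLK1 (chr16:23678739-23678888, plus) and BUB1B (chr15:40160969-40161068, plus).
MCM6: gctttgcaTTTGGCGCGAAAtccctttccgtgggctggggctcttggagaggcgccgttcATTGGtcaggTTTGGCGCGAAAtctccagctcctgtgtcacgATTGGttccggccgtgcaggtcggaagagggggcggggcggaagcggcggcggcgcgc
CDT1: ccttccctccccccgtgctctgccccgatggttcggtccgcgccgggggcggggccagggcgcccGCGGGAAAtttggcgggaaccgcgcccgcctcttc
PCNA: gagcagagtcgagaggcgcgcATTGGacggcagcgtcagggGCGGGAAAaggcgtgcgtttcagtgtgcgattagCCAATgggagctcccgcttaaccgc
MKI67: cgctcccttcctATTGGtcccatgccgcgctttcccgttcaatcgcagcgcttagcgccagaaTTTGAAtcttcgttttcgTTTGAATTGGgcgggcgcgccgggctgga
PLK1: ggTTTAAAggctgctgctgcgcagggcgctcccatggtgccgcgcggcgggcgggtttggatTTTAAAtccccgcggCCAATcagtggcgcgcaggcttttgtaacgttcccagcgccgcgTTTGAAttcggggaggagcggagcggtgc
BUB1B: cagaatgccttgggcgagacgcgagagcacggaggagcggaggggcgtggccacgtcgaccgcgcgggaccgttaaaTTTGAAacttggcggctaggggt

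Over windows of 300 bases, 250 before and 50 after the start, RefSeq gave a promoter for 32 of the 40 members (not for MCM4, MCM5, CCND1, CCND2, CCNE2, CDK2, CDKN1C and AURKA). An E2F word was in 8 of 9 licensing and fork promoters (88.9%) and in 0 of 6 mitotic ones, against 3.3% of all 35116 promoters. A CHR word was in 0 of those 9 and in 4 of 6 mitotic promoters (66.7%), against 24.0% of all. CCAAT was in 7 of 9 and in 5 of 6, against 34.6%. Outside the members, 10 of 34 other replication promoters (29.4%) held an E2F word and 2 (5.9%) a CHR word, and of 24 other mitotic promoters 2 (8.3%) held an E2F word and 21 (87.5%) a CHR word. E2F words overlap each other in both MCM6 matches, and a CHR word overlaps CCAAT in MKI67. A match describes letters in the window, not a bound site.

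**Figure D1:**
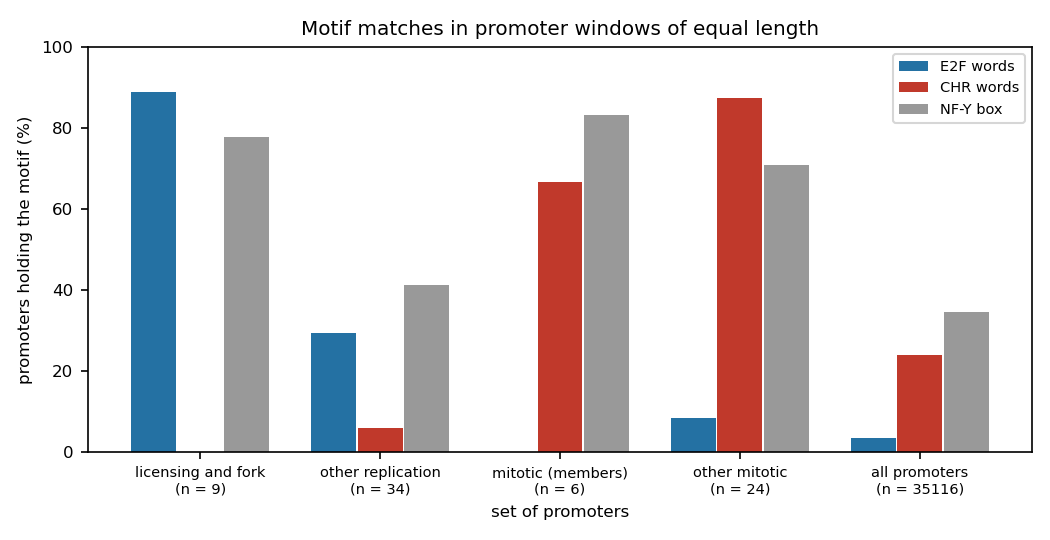
Share of promoter windows (percent, vertical axis) that hold an E2F word, a CHR word or CCAAT on either strand, by set of promoters (horizontal axis). E2F words are in 88.9% of licensing and fork members' windows and 29.4% of those of other replication genes, against 3.3% of all promoters. CHR words are in 66.7% of mitotic members' windows and 87.5% of those of other mitotic genes, against 24.0% of all promoters.

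Whether the lines differ in cell cycle RNAs was asked under each treatment. Under all 3 treatments the helicase and licensing genes MCM4, MCM5, MCM6, MCM10 and CDT1, RRM1, CCND3 and both E-type cyclin genes were lower in GRα cells, and the mitotic genes MKI67, PLK1 and BUB1B, the clamp gene PCNA and above all CCND2 were higher. In vehicle 16 of 39 members were called, 7 higher and 9 lower, where 33.4% of all genes were called (15% higher and 18.3% lower). With dexamethasone 17 members were called, 6 higher and 11 lower, where 33.3% of all genes were (15.7% and 17.6%). With RU486 16 members were called, 6 higher and 10 lower, where 29.2% of all genes were (13.1% and 16.2%). The arrays of the lines did not overlap for 17 members in vehicle, 25 with dexamethasone and 28 with RU486, against 40.5%, 45.6% and 54.8% of all genes. The members' median difference was −0.001 in vehicle, −0.02 with dexamethasone and 0.02 with RU486, against 0.008, −0.02 and −0.01 over all genes. A call is a Benjamini-Hochberg adjusted p under 0.05 over all 18417 genes in a limma fit, and errors of differences are standard errors (SE).

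The same 14 members were called in 1 direction under all 3 treatments, which is 35.9% of 39, against 22.4% of all genes. CCND2, PCNA, MKI67, PLK1 and BUB1B were higher in GRα cells (10.2% of all genes were), and MCM4, MCM5, MCM6, MCM10, CDT1, RRM1, CCND3, CCNE1 and CCNE2 were lower (12.2%). For these 14, and for no other member, all 8 GRα arrays lay outside the range of the 9 control arrays, as was so for 22.4% of all genes. By mean signal the members ranked from percentile 45.4 (CCND1) to 99.1 (TOP2A) of all genes, so the shares over all genes include dimmer genes. The members were also chosen with earlier results of these data known, and these shares are descriptions. With array medians subtracted, MCM10 with dexamethasone (limma adjusted p = 0.0525) and CCNE2 with RU486 (0.0613) were not called. With only the compared groups fitted, RRM1 (limma adjusted p = 0.117) and CCNE2 (0.0628) in vehicle and MCM10 with dexamethasone (0.0558) were not called. With the replicate letters as a block in the fit, CCNE2 with RU486 was not called either. In bulk RNA, fewer cells in a phase of the cycle and less RNA of a gene per cell cannot be told apart.

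**Figure D2:**
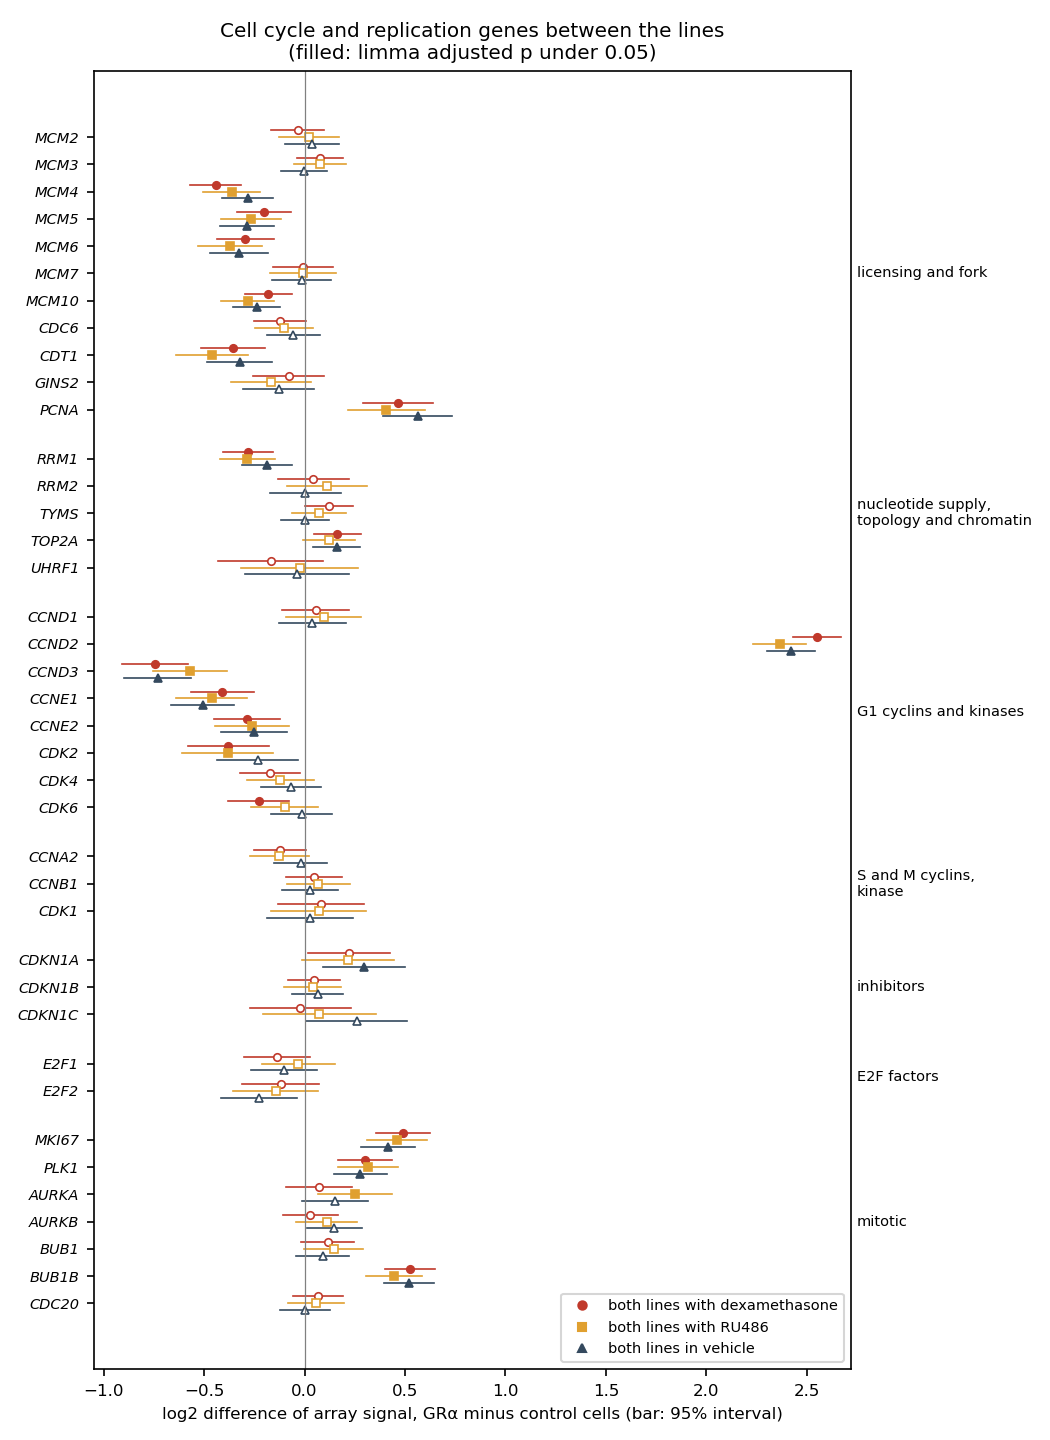
Difference in log2 array signal, GRα minus control (horizontal axis), for each of the 39 members (rows, grouped by role) under each treatment; filled symbols are limma adjusted p under 0.05 and bars are 95% intervals. CCND2 lies far to the right at 2.37 to 2.55, and most called licensing genes lie left of 0 while called mitotic genes lie right of it.

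D-type cyclins start the cycle by activating CDK4 and CDK6, and CCND2, which encodes cyclin D2, had the widest difference of the members. In vehicle CCND2 read 11.39, 11.38 and 11.38 in GRα arrays, against 9.02, 8.92 and 8.94 in control arrays. With dexamethasone it read 11.22, 11.23 and 11.22 in GRα arrays, against 8.74, 8.67 and 8.60 in control arrays, and with RU486 11.29 and 11.31, against 8.88, 8.94 and 8.98. The groups were more than 2 log2 apart under every treatment: CCND2 was 5.35-fold higher in GRα cells in vehicle (log2 2.42 ± 0.06 SE, limma adjusted p = 4.03e-15), 5.86-fold with dexamethasone and 5.15-fold with RU486.

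CCND3, the gene for cyclin D3, went the other way. Over all treatments it ran from 7.48 (median 7.61) to 7.71 in GRα arrays, against 8.04 (median 8.31) to 8.41 in control arrays, so every GRα array was the lower. It fell by 0.73 ± 0.08 SE on the log2 scale in vehicle (limma adjusted p = 8.67e-07), by 0.74 with dexamethasone and by 0.57 with RU486. CCND1, the gene for cyclin D1, ran from 6.49 (median 6.65) to 6.74 in GRα arrays and from 6.41 (median 6.58) to 6.74 in control arrays, and was called in no comparison (0.04 ± 0.08 in vehicle). The members of the D-type family thus differed from one another in direction and in size.

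E-type cyclins, the partners of CDK2 at the start of S phase, were both lower. In vehicle CCNE1 read 9.02, 8.78 and 9.13 in GRα arrays, against 9.52, 9.41 and 9.53 in control arrays. It was 1.42-fold lower in vehicle (log2 −0.51 ± 0.08 SE, limma adjusted p = 3.77e-05), 1.33-fold with dexamethasone and 1.38-fold with RU486. CCNE2 ranged from 8.17 (median 8.38) to 8.47 in GRα arrays and from 8.56 (median 8.60) to 8.69 in control arrays. Its difference in vehicle was −0.25 ± 0.08 (limma adjusted p = 0.0194), a call lost without GRα vehicle replicate A (−0.18, adjusted p = 0.107) or control vehicle replicate A (adjusted p = 0.0734). With dexamethasone it was lost without GRα dexamethasone replicate C (adjusted p = 0.0562), and with RU486 (−0.26) without any of GRα RU486 replicate B (adjusted p = 0.274) and control RU486 replicates A and C (0.0853 and 0.0878).

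Among the kinases, CDK2 was called lower with dexamethasone (−0.38 ± 0.10) and RU486 (−0.38 ± 0.11) but not in vehicle (−0.23 ± 0.10, limma adjusted p = 0.0721). In vehicle it read 10.30, 10.76 and 10.29 in GRα arrays A, B and C, against 10.76, 10.66 and 10.63 in control arrays, so array B alone stood among the controls. Without GRα vehicle replicate B the vehicle difference was −0.39 ± 0.06 (limma adjusted p = 0.000138). The RU486 call was lost without either GRα RU486 array, with adjusted p-values of 0.0566 and 0.0714.

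CDK6, a partner of D-type cyclins, was called lower with dexamethasone only (−0.23 ± 0.07). The difference was −0.01 ± 0.07 in vehicle and −0.10 ± 0.08 with RU486, and the call was lost without control dexamethasone replicate A or B or GRα dexamethasone replicate A (adjusted p up to 0.0927). CDK4, the other such partner, differed by −0.07 in vehicle, −0.17 with dexamethasone and −0.12 with RU486, none called. It was called with dexamethasone when control dexamethasone replicate A was left out (adjusted p = 0.047), or GRα vehicle replicate B (0.0199), an array outside that comparison that adds only to the estimate of spread. Whether the line difference depends on the ligand is tested further on, by the difference of ligand effects.

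**Figure D3:**
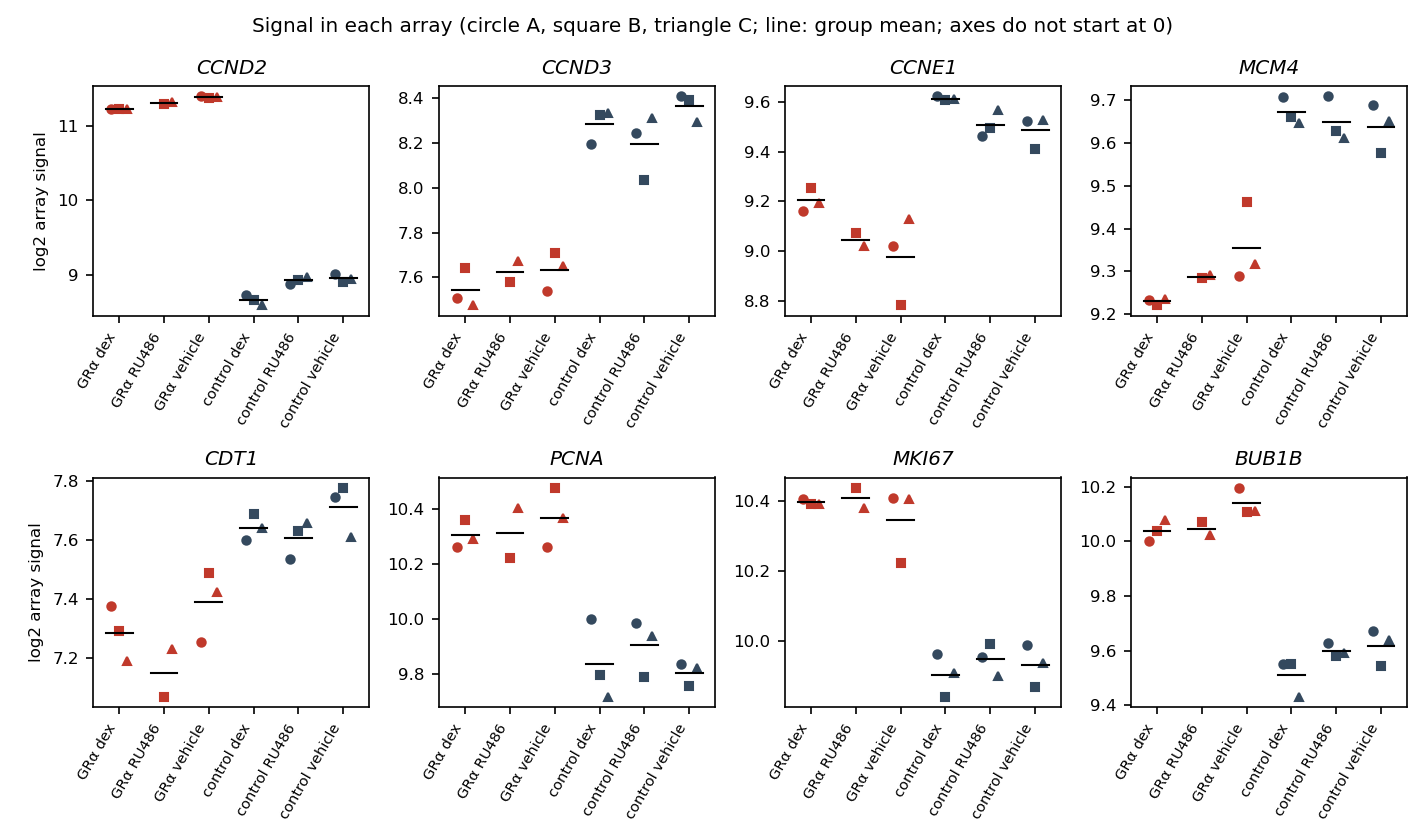
Log2 array signal (vertical axes, not starting at 0) in each array for 8 members, by group (horizontal axis); symbols mark replicates A, B and C and lines the group means. CCND2 reads 11.22 to 11.39 in GRα arrays and 8.60 to 9.02 in control arrays. All 8 are among the 14 of 39 members whose arrays do not overlap between the lines, so no member with overlap is shown.

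Of the 11 licensing and fork members, 5 were lower and 1 higher in GRα cells in vehicle, with a median difference of −0.13 (−0.22 without GRα vehicle replicate B), and the counts were the same with dexamethasone and with RU486. Over all genes 18.3% were lower and 15% higher in vehicle, 17.6% and 15.7% with dexamethasone, and 16.2% and 13.1% with RU486. The MCM2 to MCM7 proteins form the ring of the replicative helicase, yet their genes did not move as a block. MCM4, MCM5 and MCM6 were lower, while MCM2 (0.04 ± 0.06 in vehicle), MCM3 (−0.00 ± 0.05) and MCM7 (−0.01 ± 0.07) were called in no comparison of the lines.

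MCM6 read 9.73, 9.78 and 9.69 in GRα arrays, against 10.13, 10.01 and 10.05 in control arrays, in vehicle. It was 1.25-fold lower (log2 −0.33 ± 0.07 SE, limma adjusted p = 0.000996), and fell by 0.29 with dexamethasone and by 0.37 with RU486. MCM4 ranged from 9.22 (median 9.29) to 9.46 in GRα arrays and from 9.58 (median 9.65) to 9.71 in control arrays, and fell by 0.28 in vehicle, 0.44 with dexamethasone and 0.36 with RU486. Both genes stayed called in each fit that left out 1 array.

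MCM5 ranged from 9.29 (median 9.37) to 9.55 in GRα arrays and from 9.57 (median 9.63) to 9.76 in control arrays, a narrow gap. It fell by 0.29 ± 0.06 SE in vehicle, 0.20 ± 0.06 with dexamethasone and 0.27 ± 0.07 with RU486. The dexamethasone call was lost without control dexamethasone replicate B or C or GRα dexamethasone replicate A (limma adjusted p up to 0.0913), and the RU486 call without GRα RU486 replicate C (0.104). MCM10, which joins the helicase as origins fire, ranged from 8.77 (median 8.81) to 8.91 in GRα arrays and from 8.99 (median 9.05) to 9.11 in control arrays. It fell by 0.24 in vehicle, 0.18 with dexamethasone and 0.28 with RU486, and the dexamethasone call was lost without replicate A of GRα or of control dexamethasone (adjusted p 0.069 and 0.0804).

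CDT1 encodes a factor that loads the helicase. In vehicle it read 7.25, 7.49 and 7.42 in GRα arrays, against 7.75, 7.78 and 7.61 in control arrays. CDT1 was 1.25-fold lower in vehicle (log2 −0.32 ± 0.08 SE, limma adjusted p = 0.00292), 1.28-fold with dexamethasone and 1.38-fold with RU486. CDC6, its partner in loading, differed by −0.06, −0.12 and −0.10 in vehicle, dexamethasone and RU486, with no call. GINS2, a subunit of the active helicase, differed by −0.13, −0.08 and −0.17 without a call. Without GRα vehicle replicate B, GINS2 was called lower in vehicle (−0.22 ± 0.08, limma adjusted p = 0.0359), which made the count 6 lower and 1 higher of 11.

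PCNA was the exception among the fork genes. It read 10.26, 10.48 and 10.37 in GRα arrays, against 9.84, 9.76 and 9.82 in control arrays, in vehicle. All 8 GRα arrays, from 10.22 to 10.48, lay above all 9 control arrays, whose median was 9.82. PCNA was 1.48-fold higher in vehicle (log2 0.56 ± 0.08 SE, limma adjusted p = 3.23e-05), 1.38-fold with dexamethasone and 1.33-fold with RU486, where the call was lost without GRα RU486 replicate C (0.32, adjusted p = 0.0604).

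Of the 5 members for nucleotide supply, DNA topology and chromatin, RRM1 was lower and TOP2A higher in vehicle. RRM1, the large subunit of ribonucleotide reductase, ranged from 9.82 (median 9.89) to 10.03 in GRα arrays and from 10.10 (median 10.15) to 10.22 in control arrays. It fell by 0.19 ± 0.06 SE in vehicle, 0.28 with dexamethasone and 0.29 with RU486. The vehicle call was lost without replicate A of GRα or of control vehicle (limma adjusted p 0.0801 and 0.0931), and the RU486 call without GRα RU486 replicate B (0.0551).

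RRM2, the small subunit of the same enzyme, differed by 0.00 ± 0.08 in vehicle, 0.04 with dexamethasone and 0.11 with RU486, and was not called. TOP2A, the type II topoisomerase of dividing cells, differed by 0.16 ± 0.06 in vehicle and with dexamethasone, both called, and by 0.12 with RU486, not called. Its vehicle call held in 2 of 6 fits without a compared array (limma adjusted p up to 0.152) and its dexamethasone call in 1 of 6 (up to 0.103). TYMS, the thymidylate synthase gene, differed by 0.00, 0.12 and 0.07, with no call.

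UHRF1, which helps to copy DNA methylation at forks, differed by −0.04 ± 0.12 in vehicle, with 7.95, 8.51 and 7.84 in GRα arrays A, B and C, against 8.11, 8.22 and 8.10 in control arrays. Replicate B was above every control array and the other GRα vehicle arrays were below them, and without it UHRF1 was called lower (−0.24 ± 0.08, limma adjusted p = 0.0246). Its differences with dexamethasone (−0.17) and RU486 (−0.02) were not called. The other probe set of UHRF1 differed by −0.00, −0.10 and 0.09 in vehicle, dexamethasone and RU486.

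Of the 7 mitotic members, 3 were higher in GRα cells in vehicle, 3 with dexamethasone and 4 with RU486, and none was lower by limma, the lowest difference being 0.00 for CDC20 in vehicle. Of all genes 15%, 15.7% and 13.1% were higher under these treatments, and 18.3%, 17.6% and 16.2% lower. BUB1B, a spindle checkpoint kinase gene, read 10.19, 10.11 and 10.11 in GRα arrays, against 9.67, 9.54 and 9.64 in control arrays, in vehicle. It was 1.43-fold higher (log2 0.52 ± 0.06 SE, limma adjusted p = 1.77e-06), 1.44-fold with dexamethasone and 1.36-fold with RU486. Its relative BUB1 differed by 0.09, 0.11 and 0.14, without a call.

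MKI67, the gene of the proliferation antigen Ki-67, read 10.41, 10.22 and 10.41 in GRα arrays, against 9.99, 9.87 and 9.94 in control arrays, in vehicle. MKI67 was 1.33-fold higher (log2 0.41 ± 0.06 SE, limma adjusted p = 5.69e-05), 1.41-fold with dexamethasone and 1.37-fold with RU486. PLK1, the Polo kinase of mitotic entry, ranged from 9.63 (median 9.68) to 9.77 in GRα arrays and from 9.31 (median 9.40) to 9.51 in control arrays. It differed by 0.28 in vehicle, 0.30 with dexamethasone and 0.31 with RU486. Calls for BUB1B, MKI67 and PLK1 held in every fit without 1 array under all 3 treatments.

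The Aurora kinases gave weaker values. AURKA, of the spindle poles, was called higher with RU486 only (0.25 ± 0.09, limma adjusted p = 0.0362), and that call held in no fit without a compared array (adjusted p up to 0.19). In vehicle it differed by 0.15 (0.06 without GRα vehicle replicate B) and with dexamethasone by 0.07. AURKB, of the centromeres, differed by 0.15, 0.03 and 0.11 without a call, and was called in vehicle without GRα vehicle replicate C (0.21 ± 0.07, limma adjusted p = 0.0243). CDC20, an activator of the anaphase-promoting complex, differed by 0.00, 0.07 and 0.06.

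The cyclins of S phase and mitosis and their kinase showed no called difference between the lines: 0 of 3 by limma, and 0 at an unadjusted p under 0.05, under each treatment. Of all genes 33.4%, 33.3% and 29.2% were called in vehicle, with dexamethasone and with RU486. CCNA2 differed by −0.02, −0.12 and −0.13 in vehicle, dexamethasone and RU486, CCNB1 by 0.03, 0.04 and 0.07, and CDK1 by 0.03, 0.08 and 0.07. The 95% intervals in vehicle ran from −0.15 to 0.11 for CCNA2, from −0.11 to 0.16 for CCNB1 and from −0.19 to 0.24 for CDK1. CDK1 read 9.16, 9.57 and 9.34 in the GRα vehicle arrays, which spread more widely than the control vehicle arrays at 9.45, 9.24 and 9.30.

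Among the inhibitors, CDKN1A (p21), which blocks cyclin-CDK complexes and binds PCNA, was called higher in vehicle only (0.29 ± 0.10 SE, limma adjusted p = 0.0259). It read 7.86, 8.22 and 7.83 in GRα arrays A, B and C, against 7.71, 7.71 and 7.61 in control arrays. Without replicate B of GRα vehicle the difference was 0.17 (limma adjusted p = 0.134), and the call was also lost without control vehicle replicate C (0.092). With dexamethasone and RU486 CDKN1A differed by 0.22 each, without a call, though the dexamethasone difference was called in the fit without GRα vehicle replicate B (adjusted p = 0.0287). CDKN1B (p27) differed by 0.06, 0.05 and 0.04 and was not called.

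CDKN1C (p57) read 7.63, 8.11 and 7.59 in GRα vehicle arrays, against 7.45, 7.61 and 7.50 in control vehicle arrays, again with replicate B the highest. Its difference of 0.26 ± 0.12 was not called (limma adjusted p = 0.11) except without GRα vehicle replicate C (0.35, adjusted p = 0.0425). Without replicate B the difference was 0.09 (adjusted p = 0.529). It was −0.02 with dexamethasone and 0.07 with RU486. Of the E2F factors, E2F1 differed by −0.10, −0.14 and −0.03. E2F2 differed by −0.23 ± 0.09 in vehicle (limma adjusted p = 0.0629), −0.12 with dexamethasone and −0.14 with RU486. E2F2 was called in vehicle without GRα vehicle replicate A (−0.31, adjusted p = 0.015), while replicate B was its lowest array at 6.57, against 6.999 and 6.90 in A and C, and without B the difference was −0.10 (adjusted p = 0.309).

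GRα vehicle replicate B was the highest of its group or the lowest for several members, as these values show. Set against the mean of replicates A and C, it was higher for 27 of 39 members, with a median of 0.09. Over all genes it was higher for 9009 of 18417, with a median of −0.01. It was over 0.25 log2 away for 9 members (23.1%) and for 26.5% of all genes. The largest such differences were UHRF1 at 0.62, CDKN1C at 0.50, CDK2 at 0.46, E2F2 at −0.38 and CDKN1A at 0.37. Without this array the vehicle comparison called 18 members, 6 higher and 12 lower. That fit estimates the spread of every gene without the array. The share of all genes called in it is not given here, so the count does not show that members gained more calls than other genes. Among members not called either way, CDC6 then differed by −0.10, CDK4 by −0.15, CDK1 by −0.08 and MCM7 by −0.08.

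Other genes of the same processes were read from lists that do not include the members. Of 38 other replication genes, 15 were lower and 5 higher in GRα cells in vehicle (median −0.14), with 15 and 6 for dexamethasone and the same for RU486. The shares of all genes lower and higher were 18.3% and 15% in vehicle, 17.6% and 15.7% with dexamethasone, and 16.2% and 13.1% with RU486. The origin complex gene ORC2 (0.68 ± 0.06 SE) and the dUTPase gene DUT (0.63 ± 0.07) were the largest rises, and CHAF1B of the chromatin assembly factor (−0.82 ± 0.06) and RFC3 of the clamp loader (−0.76 ± 0.07) the largest falls without overlap. Both rises and both falls were also called with dexamethasone and RU486. These lists were chosen with earlier results known and their counts are descriptions.

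Of 27 other mitotic genes, 12 were higher and 0 lower by limma in vehicle (median 0.19, or 0.13 without GRα vehicle replicate B), 13 and 0 with dexamethasone, and 12 and 0 with RU486. Over all genes the shares higher were 15%, 15.7% and 13.1% in that order, and those lower 18.3%, 17.6% and 16.2%. KIF23, a kinesin of the central spindle, was 2.02-fold higher (log2 1.01 ± 0.06 SE, limma adjusted p = 7.33e-10), and CCNB2, which encodes cyclin B2, was 1.95-fold higher (log2 0.96 ± 0.06). The mean signal of the 27 genes ran from 9.49 to 9.59 over the GRα arrays and from 9.19 to 9.34 over the control arrays, without overlap. For the 7 mitotic members it ran from 9.53 to 9.63 and from 9.30 to 9.42.

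Of 26 other genes of the G1/S and retinoblastoma pathway, 10 were lower and 3 higher in vehicle, where 18.3% and 15% of all genes were. CDKN2B (0.97 ± 0.08 SE) and CDKN2A (0.95 ± 0.06), neighbouring genes that encode INK4 inhibitors of CDK4 and CDK6, were higher. TFDP1, the DNA-binding partner of E2F factors (−0.93 ± 0.06), and E2F5, a repressive E2F (−0.51 ± 0.10), were lower. Of 12 genes that p53 is known to induce, 3 were higher and 1 lower in vehicle: GADD45A was 1.98-fold and FAS 1.73-fold higher, and CCNG1 fell by 0.51 ± 0.07. Without GRα vehicle replicate B the p53 targets gave 3 higher and 2 lower. With dexamethasone 4 of these 12 were higher and 1 lower, and with RU486 3 and 3. Of all genes 15.7% were higher and 17.6% lower with dexamethasone, and 13.1% and 16.2% with RU486.

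**Figure D4:**
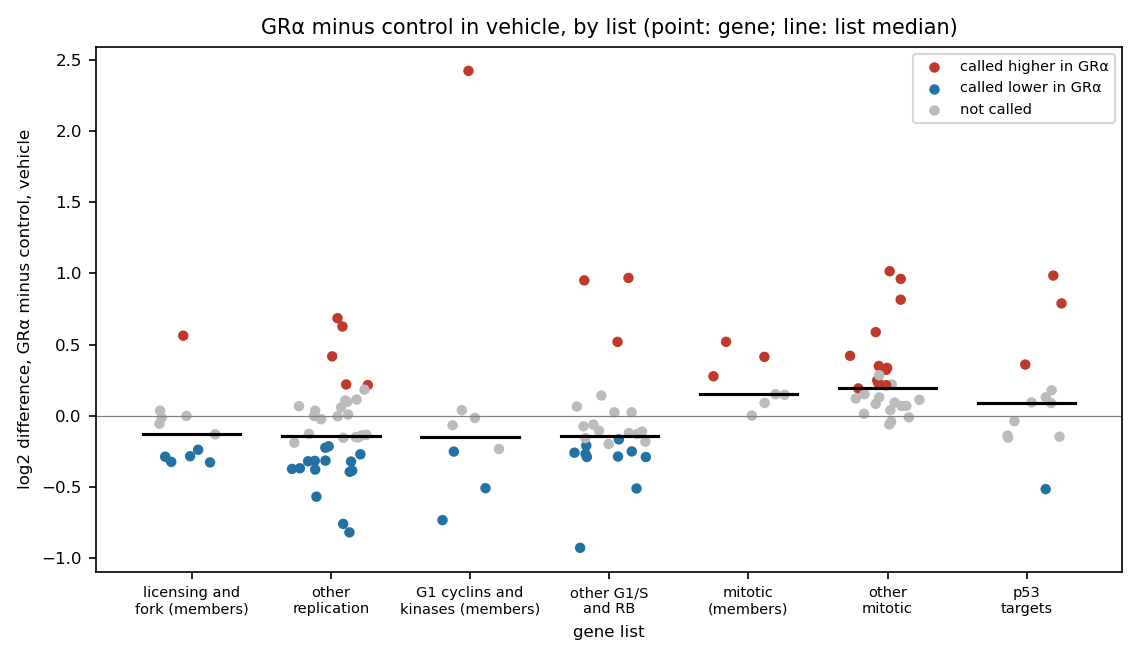
Difference in log2 array signal, GRα minus control in vehicle (vertical axis), for the genes of each list (horizontal axis); points are genes, coloured by call, and lines list medians. Medians are −0.14 for other replication genes and 0.19 for other mitotic genes, and CCND2 stands alone at 2.42.

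Whether the ligands change these genes within 6 h was asked in each line. Dexamethasone gave 0 member calls by limma in GRα cells, where 2.02% of all genes were called, and 7 members had an unadjusted p under 0.05. In control cells it gave 1 call, CCND2 lower, where 0.261% of all genes were called and 0.0489% were called lower. RU486 gave 0 calls by limma in either line, as for all genes (0%), with 2 members at an unadjusted p under 0.05 in each line. The percentages of all genes are at the adjusted p. Counts at an unadjusted p, here and elsewhere, are not set against a share of all genes. They do not show that members differ from other genes. For all 39 members and both ligands, the 95% interval of the effect lay within 0.5 log2 on either side of 0 in both lines.

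CCND2 was lower with dexamethasone in control cells. It read 8.74, 8.67 and 8.60 with dexamethasone, against 9.02, 8.92 and 8.94 with vehicle, and the arrays did not overlap. The difference was −0.29 ± 0.06 SE (limma adjusted p = 0.0379), but in each of the 6 fits without a compared array the adjusted p passed 0.05, up to 0.254, while the difference stayed between −0.33 and −0.26. In GRα cells CCND2 read 11.22, 11.23 and 11.22 with dexamethasone, against 11.39, 11.38 and 11.38 with vehicle, again without overlap (−0.16 ± 0.06, adjusted p = 0.189). The effects in the lines differed by 0.13 and this difference was not called.

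The other members with an unadjusted p under 0.05 for dexamethasone in GRα cells were MCM2, CCNE1, CDK2, CDK4, CDK6 and AURKA. CCNE1 was the only one of them with a positive difference: it read 9.16, 9.25 and 9.19 with dexamethasone, against 9.02, 8.78 and 9.13 with vehicle (0.23 ± 0.08 SE, limma adjusted p = 0.156). Without GRα vehicle replicate C it was called (0.30, adjusted p = 0.0376), and without replicate B, its lowest vehicle array, it was 0.13 (adjusted p = 0.418). The others have replicate B as their highest vehicle array. Without it CDK2 differed by −0.06 in place of −0.22, CDK4 by −0.08 in place of −0.17, AURKA by −0.08 in place of −0.17, MCM2 by −0.08 in place of −0.13 and CDK6 by −0.13 in place of −0.17. With RU486, MCM2 (−0.20 ± 0.07) and CDT1 (−0.24 ± 0.08) in GRα cells and MCM2 (−0.19 ± 0.06) and CCND3 (−0.17 ± 0.08) in control cells had an unadjusted p under 0.05, all with limma adjusted p above 0.5. Comparisons with the same vehicle arrays share those arrays' deviations.

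The inhibitor genes CDKN1A and CDKN1C, which glucocorticoids induce in some other cells, were not called with dexamethasone. CDKN1A read 8.01, 7.91 and 7.83 with dexamethasone in GRα cells, against 7.86, 8.22 and 7.83 with vehicle, and the groups overlap. CDKN1C read 7.76, 7.38 and 7.66 with dexamethasone, against 7.63, 8.11 and 7.59 with vehicle, and these overlap as well. In control cells CDKN1C read 7.54, 7.65 and 7.67 with dexamethasone, against 7.45, 7.61 and 7.50 with vehicle.

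Outside the members, the only gene of the other cell cycle lists called with a ligand was PKMYT1, whose product is an inhibitory kinase of CDK1. With dexamethasone in GRα cells it ranged from 8.03 to 8.11, against 7.65 to 7.89 with vehicle (0.29 ± 0.07 SE, limma adjusted p = 0.0393). The call was lost without GRα vehicle replicate B (0.22 ± 0.06, adjusted p = 0.123). In control cells it differed by 0.14 ± 0.07, not called, and the difference between the lines was not called either.

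Dexamethasone and RU486 were set against each other at the same dose and time, 1 pair in each of the 2 lines, with p-values adjusted over all genes of a comparison. Both compounds are synthetic steroids, and RU486 carries a dimethylaminophenyl group that dexamethasone lacks. No member was called by limma in GRα cells (0 of 39, 1 at an unadjusted p under 0.05), where 0.896% of all genes were called. In control cells 0 were called by limma (1 at an unadjusted p under 0.05), where 0.364% of all genes were called. In GRα cells the member below that unadjusted p was AURKA (−0.24 ± 0.09, limma adjusted p = 0.362).

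In control cells it was CCND2, with 8.74, 8.67 and 8.60 with dexamethasone, against 8.88, 8.94 and 8.98 with RU486. The 95% interval of that difference ran from −0.38 to −0.15 (−0.27 ± 0.06 SE, limma adjusted p = 0.0556). With GRα vehicle replicate B left out of the fit, although it is no part of this comparison, the difference was called. In GRα cells CCND2 read 11.22, 11.23 and 11.22 with dexamethasone, against 11.29 and 11.31 with RU486, a difference of −0.08. For every member the interval between the compounds lay within 0.5 log2 of 0 in both lines, which bounds the difference and does not show that they act alike.

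The lines' responses were compared by the difference of ligand effects. It gave 0 member calls by limma for dexamethasone, where 0.0652% of all genes were called, and 0 for RU486, where 0% were, with 0 members at an unadjusted p under 0.05 in each. For 38 of 39 members the 95% interval lay within 0.5 log2 of 0, for either ligand.

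**Figure D5:**
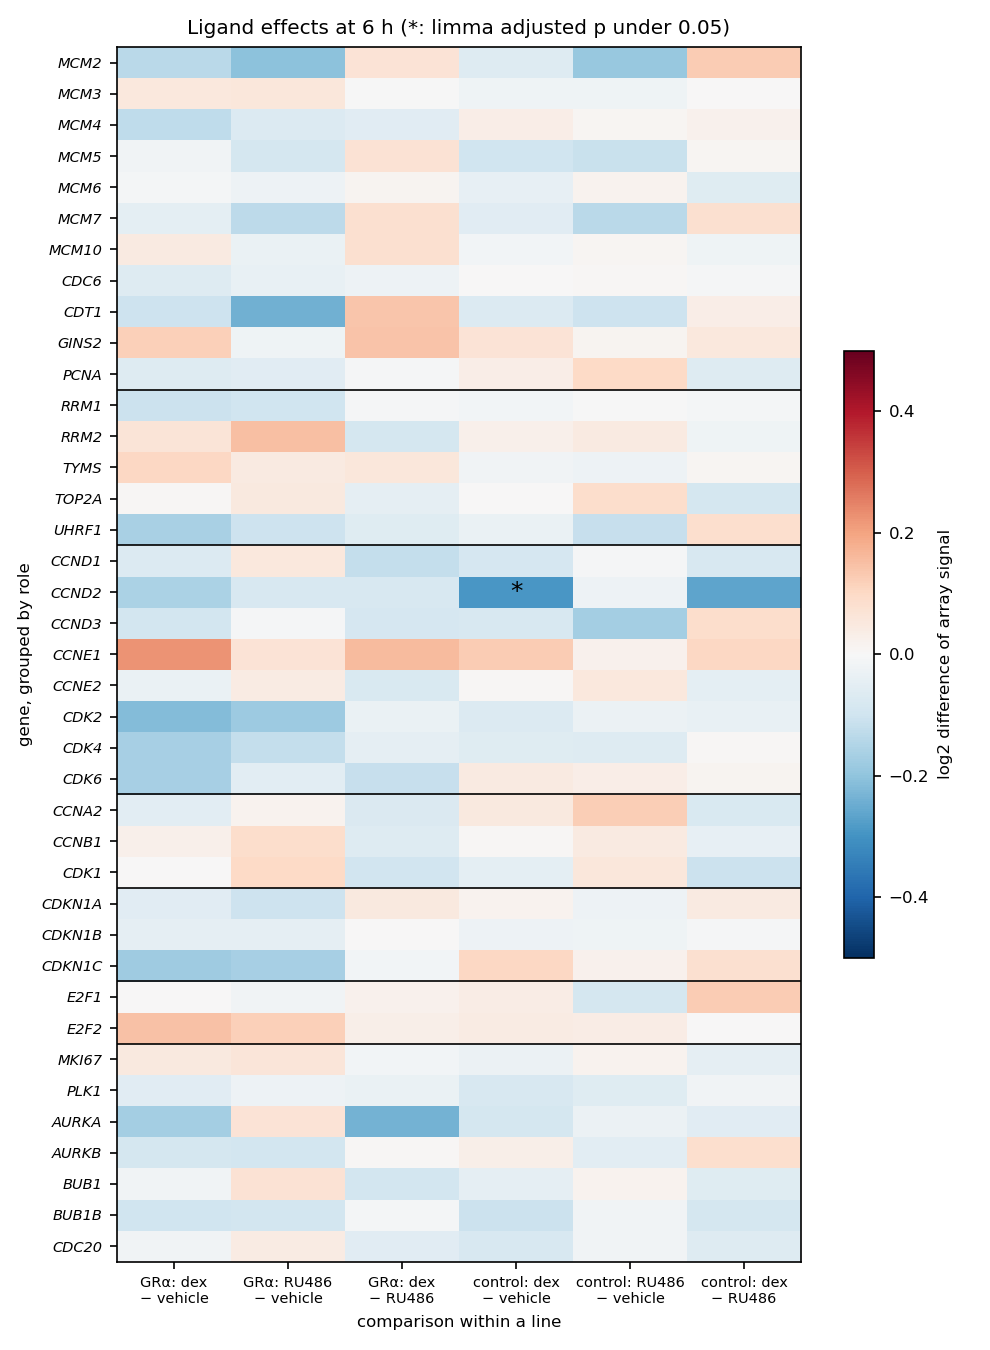
Log2 difference of array signal (colour) for each member (rows, grouped by role) in each comparison of a ligand within a line (columns); an asterisk marks limma adjusted p under 0.05. The single asterisk is CCND2 with dexamethasone against vehicle in control cells, at −0.29.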

How the data were processed

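Biotinylated cDNA from 100 ng of total RNA was hybridised to Affymetrix whole-transcript arrays, per the labels. The authors deposited log2 values for 29153 probe sets, and RMA and limma are named in the submitters' processing notes. No version or genome build is given in the sources used here. RMA gives the probe signals of every array the same distribution before they are combined into probe sets. The array medians of the deposited values still ran from 6.28 to 6.35. A change of most RNAs in 1 direction cannot be read from these values. Values exist for 17 of 18 arrays, and GRα RU486 replicate A, which failed quality control per the labels, is not analysed here.

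Genes were the 18417 symbols with probe sets of their own, each read from the probe set with the highest mean. Contrasts (11) were taken from 1 limma fit (version 3.58.1, R 4.3.3) over 17 arrays with a mean per group, 11 residual and 5.89 prior degrees of freedom, two-sided, Benjamini-Hochberg adjusted over all genes. The scripts were tested on simulated data. The number of arrays limits the precision. The named-gene rule takes all members, NR3C1, and of each other list the 2 largest called rises and falls in vehicle without overlap, plus list genes called with a ligand. Members and lists were chosen with earlier results of these data known. Alternatives were other normalizations, gene units, filters, spread models, array weights, samples fitted, a replicate block, a stricter threshold and each array left out. Promoters came from RefSeq (GRCh38.p14).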

Additional observations from a re-analysis of the deposited data

How the results depend on the processing

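The 50 member calls were refitted under 26 alternatives each, 1300 refits in all: 1223 kept the call, 77 lost it and 0 turned direction, and 34 calls held in every refit. Counts of called members between the lines stayed within 1.5 times under each alternative; without 1 array they ran from 14 to 18 in vehicle, from 13 to 19 with dexamethasone and from 12 to 16 with RU486. For dexamethasone against vehicle in control cells the count of 1 became 0 with array medians subtracted, with only the compared groups fitted, with the replicate block and at an adjusted p under 0.01, and was 0 to 1 without 1 array. For dexamethasone against RU486 in control cells the count of 0 became 1, CCND2, with another quantile normalization, without the dimmest 25% of genes, with trend and robust options and with array weights, and was 0 to 1 without 1 array. For dexamethasone against vehicle in GRα cells it was 0 to 1 without 1 array. The cause was not tested. Over all genes, deviations of same-letter arrays of different groups correlated with r from −0.254 to 0.324, over 0.1 in 5 of 30 pairs. Other-letter pairs gave r from −0.366 to 0.285, over 0.1 in 14 of 60. In control cells replicate A was the highest of its group under each treatment for some members, such as RRM1, but not all. Whether same-letter arrays shared a culture or handling was not tested. With the replicate block 16, 17 and 14 members were called between the lines in vehicle, dexamethasone and RU486. The RU486 calls of CCNE2 and AURKA were those lost with it (limma adjusted p 0.0613 and 0.0526). Groups of 2 or 3 arrays, and 1 line per construct, limit every comparison.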
